A study of Mus musculus with 28 samples.

Results

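The genes described are 10 acid-base genes of the kidney's intercalated cells, all present among the 14845 genes of the deposited expression table. They were chosen by name: the anion exchangers Slc4a1, Slc4a9 and Slc26a4, the cytosolic carbonic anhydrase Car2, the proton pump subunits Atp6v1b1, Atp6v0d2 and Atp6v1g3, the ammonia channels Rhbg and Rhcg, and the transcription factor Foxi1. All 10 passed the filter on low values, so that no member is missing from any comparison.

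Intercalated cells lie between the principal cells of the connecting tubule and collecting duct and set the final acidity of urine. In the type A cell, carbonic anhydrase splits hydrated carbon dioxide into a proton and bicarbonate, a vacuolar proton pump on the luminal side secretes the proton, and the exchanger AE1, the product of Slc4a1, returns bicarbonate to the blood. The type B cell runs the other way and secretes bicarbonate through pendrin, the product of Slc26a4. Ammonia moves through Rhbg and Rhcg into the collecting duct lumen, where it traps protons, and in mice that lack Foxi1 intercalated cells do not form and their exchangers and pump subunits are lost. Slc4a1 is also a major red cell gene, transcribed there from another start site, so that a value per gene cannot separate kidney AE1 from the red cell form.

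The study asked how the kidney transcriptome changes in severe diabetic kidney disease. RNA-seq covered 28 kidney libraries, all from males. The db/db mice had a kidney surgically removed (Unx) and were 26 weeks (n = 12) or 35 weeks (n = 5) old, and the db/m mice kept both kidneys (intact) and were 26 weeks (n = 5) or 35 weeks (n = 6) old. db/db mice lack the long form of the leptin receptor in all their cells and are obese and diabetic, and db/m mice, which carry the mutation on a single chromosome copy, are the usual lean controls. Genotype and surgery were never separated, so that each comparison below is of both together. The labels do not say that each library is a separate animal, and if libraries share animals the p-values rest on the spread among libraries, which may be technical. They name no batch, so that a batch that differed between the ages and age itself cannot be told apart.

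Estimated depth was 21.7 to 30.7 M counts (M, mega) per library, and the estimated count of a member was never under 137 in any library. Libraries of a group correlated at r = 0.971 to 0.991 across genes, which are not independent replicates. Cell type markers of kidney were present: of the group means of Umod of the thick limb, Slc12a3 of the distal convoluted tubule, Aqp2 of the principal cell and Pck1 of the proximal tubule, the lowest was that of Aqp2 in db/m intact at 26 weeks, at 375. On a principal component that held 9.17% of the variance, replicates 03, 05 and 06 of the db/db Unx group at 35 weeks stood apart from all others (scores of -42.8, -26.7 and -20.1). The 35-week changes are therefore given with and without these 3 libraries, an alternative chosen after seeing the data. Genes of injured tubules rose in 8 of 8 cases at 35 weeks (beside 15.9% of all genes) and 6 of 8 at 26 weeks (beside 17.2%). Macrophage genes rose in 6 of 10 cases at 35 weeks, where their summed values were 151 to 581 in db/db Unx and 135 to 217 in db/m intact. None of these 18 marker genes was at 0 in every library.

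By the GENCODE M21 annotation of GRCm38, Slc4a1 (ENSMUSG00000006574) lies on chromosome 11, 102348824 to 102366203, minus strand, and Foxi1 (ENSMUSG00000047861) on the same chromosome, 34204338 to 34208089, minus strand. Slc26a4 (ENSMUSG00000020651) spans chromosome 12, 31519827 to 31559969, minus strand, and Slc4a9 has the identifier ENSMUSG00000024485. Car2 (ENSMUSG00000027562, chromosome 3, 14886273 to 14900770, plus strand) and Rhbg (ENSMUSG00000104445, 88242874 to 88254709, minus strand) share a chromosome. Atp6v1b1 (ENSMUSG00000006269) is on chromosome 6, 83742990 to 83758855, plus strand, and Atp6v0d2 (ENSMUSG00000028238) on chromosome 4, 19876841 to 19922605, minus strand. Atp6v1g3 (ENSMUSG00000026394) is on chromosome 1, 138273738 to 138289462, plus strand, and Rhcg (ENSMUSG00000030549) on chromosome 7, 79593363 to 79617657, minus strand. Rhbg overlaps the annotated gene Gm38392 and Rhcg overlaps Gm45170, each on its own strand, so that part of their reads could have been assigned either way.

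The promoters of 3 genes are shown because Foxi1 is known to drive genes of this cell type, and they stand for the proton pump, the type B exchangers and the ammonia channels. The RefSeq promoter table of GRCm38.p6 held 5 of the 10 genes. Each sequence is the 250 bases before the start site on the gene's own strand, and capitals mark TGTTTAC, a core sequence recognised by forkhead factors, searched on both strands:
Atp6v1b1 (chr6:83742767-83743016, plus strand): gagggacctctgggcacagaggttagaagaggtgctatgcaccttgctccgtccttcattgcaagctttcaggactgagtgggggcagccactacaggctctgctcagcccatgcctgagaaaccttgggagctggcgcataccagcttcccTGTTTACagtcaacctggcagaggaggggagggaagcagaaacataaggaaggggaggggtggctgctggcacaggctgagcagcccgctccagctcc
Slc26a4 (chr12:31559985-31560234, minus strand): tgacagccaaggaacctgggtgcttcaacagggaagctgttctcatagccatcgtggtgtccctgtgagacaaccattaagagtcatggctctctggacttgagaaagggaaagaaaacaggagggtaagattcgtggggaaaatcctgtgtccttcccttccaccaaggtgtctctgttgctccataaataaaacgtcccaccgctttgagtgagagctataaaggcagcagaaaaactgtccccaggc
Rhcg (chr7:79617658-79617907, minus strand): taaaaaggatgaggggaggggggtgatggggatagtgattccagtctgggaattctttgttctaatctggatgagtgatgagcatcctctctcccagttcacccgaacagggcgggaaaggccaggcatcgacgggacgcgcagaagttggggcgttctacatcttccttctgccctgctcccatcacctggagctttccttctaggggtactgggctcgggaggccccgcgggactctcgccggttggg
The motif stood in the Atp6v1b1 window, 98 to 92 bases before the start, and those letters were not in the windows of Slc26a4, Rhcg, Foxi1 and Atp6v1g3. Of all 32851 promoters of that length in the table, 1040 (3.17%) held it. A match of letters describes the sequence and shows no binding.

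At 26 weeks, setting db/db Unx kidneys against db/m intact kidneys asked which of these genes differ in the diseased kidney. A gene counts as called where limma gave an adjusted p below 0.05, with Benjamini-Hochberg adjustment over all 13495 genes tested. Of the 10 genes 5 were called, beside 34.9% of all genes. Slc4a1, Car2, Foxi1 and Rhcg rose (17.2% of all genes were called higher) and Slc26a4 fell (17.7% lower). At 35 weeks 3 of 10 were called, beside 32.3% of all genes: Car2 rose (15.9% higher) and Slc26a4 and Slc4a1 fell (16.4% lower). The shares called were thus not far from those of the whole table, and the sizes and directions of single genes carry the description. The median log2 change of the 10 was 0.07 at 35 weeks and 0.24 at 26 weeks, against 0.01 and 0.02 over all genes at the same ages. As these are whole kidneys, fewer cells of a type and less RNA per cell cannot be told apart.

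**Figure D1:**
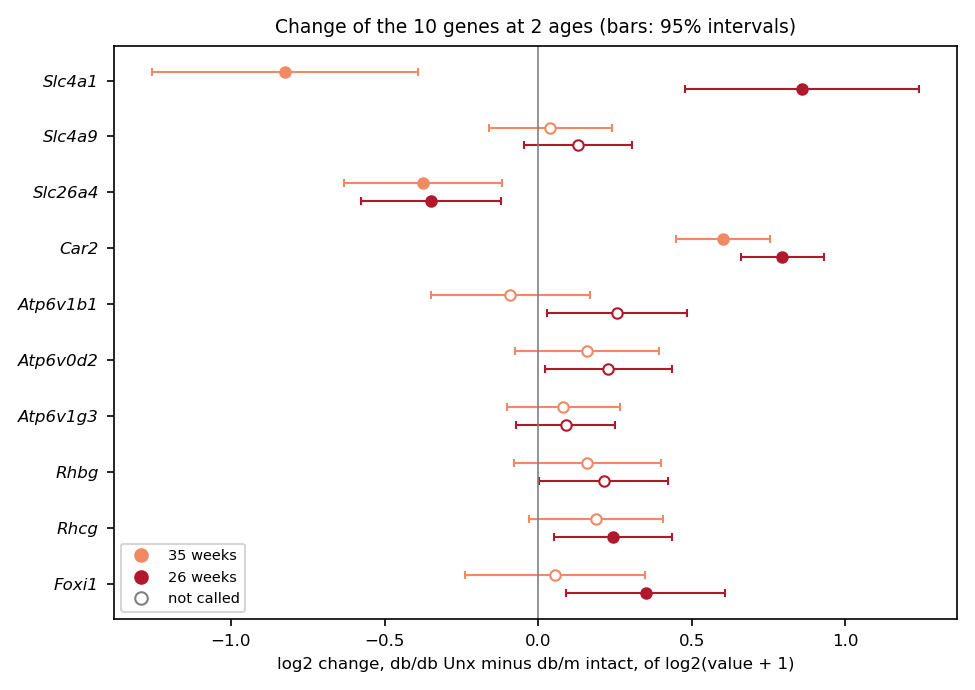
Log2 change, db/db Unx minus db/m intact, of each of the 10 genes at 35 weeks (orange) and 26 weeks (red) on the log2(value + 1) scale, with 95% intervals; filled points were called at an adjusted p below 0.05. Slc4a1 lies at -0.82 at 35 weeks and at 0.86 at 26 weeks, Slc26a4 lies below 0 and Car2 above 0 at both ages.

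Per kilobase of exon, the scale on which levels of different genes can be set side by side, Car2 stood highest in every group and Slc4a1 lowest. In db/db Unx at 26 weeks Car2 averaged 247 ± 23.6 scaled units per kilobase (SD, n = 12), Rhcg 44.9 ± 5.45, Atp6v1g3 28.7 ± 2.78, Rhbg 24.8 ± 3.90 and Slc26a4 15.6 ± 2.31. The others were lower, with Foxi1 at 8.84 ± 1.61, Atp6v0d2 at 7.56 ± 0.965, Atp6v1b1 at 6.21 ± 1.24, Slc4a9 at 5.35 ± 0.771 and Slc4a1 at 4.64 ± 0.853 per kilobase. In that group 5 of the 9 gaps between neighbours in this order were smaller than the sum of both SDs, namely all 4 gaps below Foxi1 and that between Atp6v1g3 and Rhbg. In db/m intact at 26 weeks Slc26a4 (19.9 ± 2.38, n = 5) lay next to Rhbg (21.3 ± 3.81), a gap of 1.43 inside their SDs, whereas in db/db Unx of that age the gap of 9.17 between the same genes exceeded them.

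Slc4a1, the basolateral exchanger of the type A cell, was the single one of the 10 genes called at both ages in opposite directions. In db/db Unx at 26 weeks its 12 values ran from 15.8 through a median of 23.5 to 27.7. The 5 db/m intact libraries of that age had 15.3, 13.7, 13.8, 13.8 and 5.69. All 12 db/db Unx libraries lay above all 5 db/m libraries. The log2 change was 0.86 ± 0.19 (SE, adjusted p 0.000472), and 0.62 (adjusted p 0.00398) without db/m replicate 05, the lowest. Groups that did not overlap were found for 2 of the 10 genes at 26 weeks, Slc4a1 and Car2, beside 12.8% of all genes.

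At 35 weeks Slc4a1 was lower in db/db Unx. The 5 db/db Unx libraries had Slc4a1 values of 6.22, 15.4, 9.36, 7.16 and 9.40, and the 6 db/m intact libraries ran from 11.9 through a median of 16.005 to 25.2. In all, 4 of the 5 db/db Unx libraries lay below every db/m library, and replicate 02 lay inside the db/m range. Slc4a1 fell by 0.82 ± 0.21 on the log2 scale (adjusted p 0.00292). Without the 3 libraries that stood apart, the log2 change was -0.71 and no longer called (adjusted p 0.110, 2 db/db Unx libraries left). The macrophage and injured tubule genes given above moved in the same comparison, and their part in it was not tested.

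The difference between the comparisons, 35 minus 26 weeks, was tested directly. It was -1.68 ± 0.28 for Slc4a1 (adjusted p 0.00712), and Slc4a1 was called under every leave-one-out fit, at -1.86 to -1.45. Of all genes 0.548% were called in this test and 0.156% were called lower, and of the 10 genes only Slc4a1 was. By its p-value it ranked 3 of 13495. Only 3 genes in the whole table were called higher at 26 weeks and lower at 35 weeks, Slc4a1 among them, and 9 were called lower at 26 weeks and higher at 35 weeks. Without the 3 libraries apart the difference was -1.57 with an adjusted p of 0.163. Over all genes the number called in this test was 74, and 7 without db/db Unx replicate 05 of 35 weeks, 249 without replicate 02 and 0 without the 3 libraries.

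**Figure D2:**
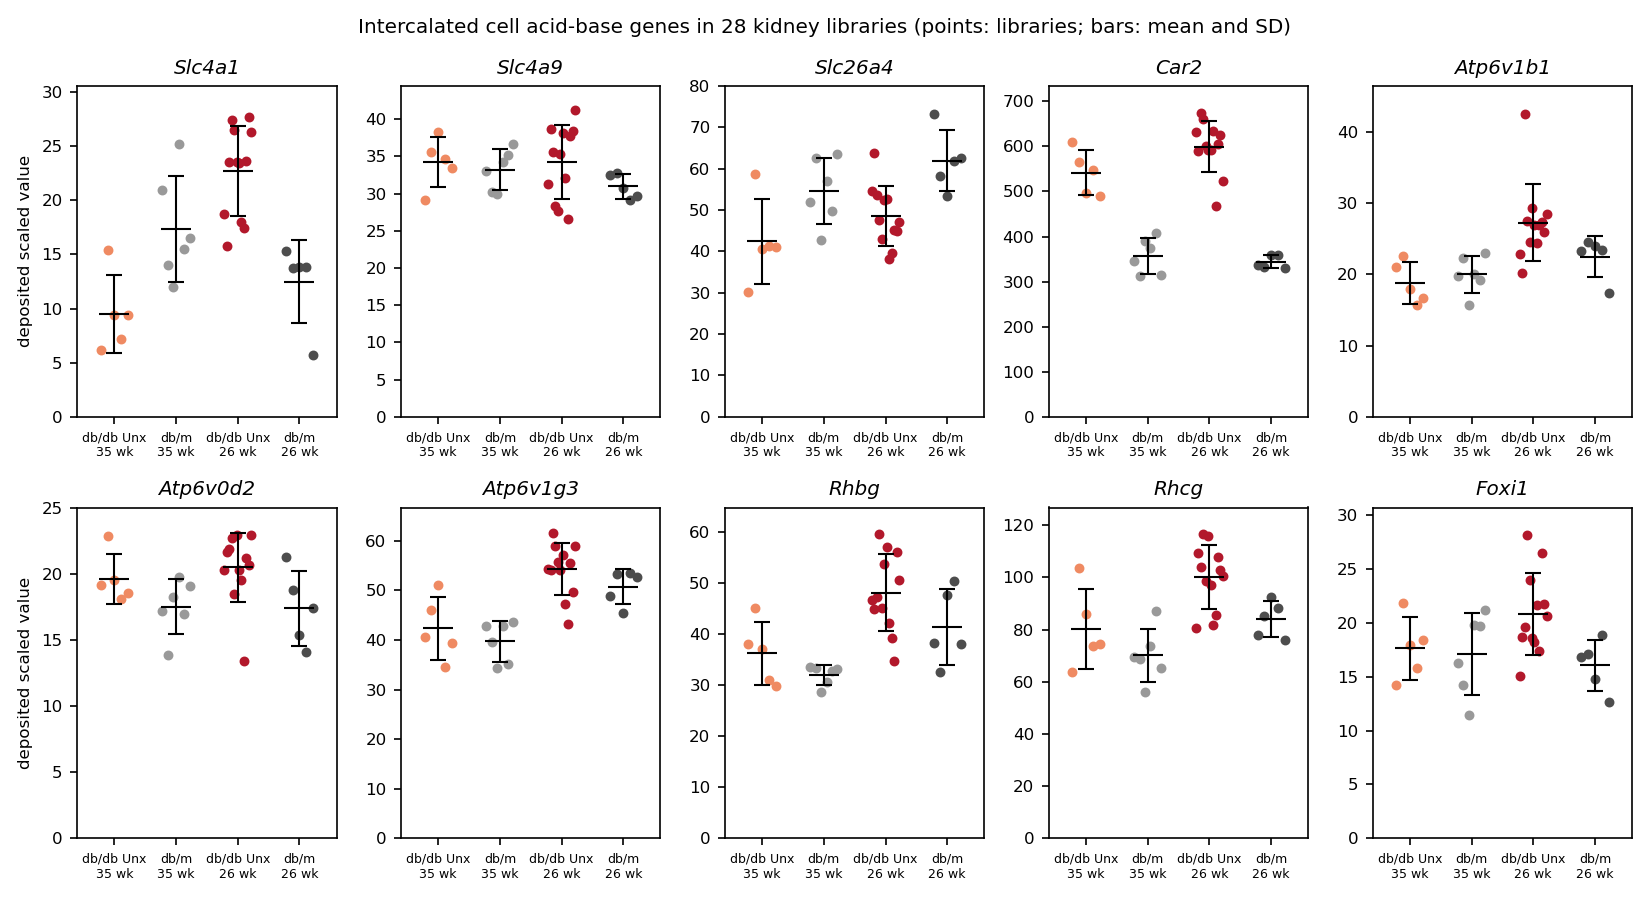
Deposited scaled value of each gene (vertical axis, from 0) in each of 28 libraries, by group, with db/db Unx left of db/m intact at each age; points are libraries and bars the mean and SD. Slc4a1 is high in all 12 db/db Unx libraries of 26 weeks and low in 4 of 5 at 35 weeks, whereas Car2 lies above every db/m library at both ages.

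Because Slc4a1 is shared with red cells, it was set beside erythroid genes. Of 15 such genes 7 were measured and the other 8 were not analysed here. At 26 weeks the beta-globin gene Hbb-bs ran from 100.2 through a median of 189 to 398 in db/db Unx, and the 5 db/m libraries had 443, 479.9, 166, 226 and 798. Its log2 change was -0.91 ± 0.39 and not called (adjusted p 0.0767), opposite in sign to that of Slc4a1. The other globin genes, Hbb-bt, Hba-a1 and Hba-a2, had values of -0.78 to -0.84 and Alas2, the first enzyme of red cell haem synthesis, -0.47, none of them called. Only Epb42, a red cell membrane protein near its detection limit (0.300 ± 0.309 in db/db Unx, 0.952 ± 0.536 in db/m intact), was called, at -0.57 (adjusted p 0.0430). The library with the lowest Slc4a1 of all 28, db/m replicate 05 of 26 weeks, had the highest Hbb-bs of all 28. Summed erythroid values were 293 to 1078 in db/db Unx and 458 to 2160 in db/m intact at 26 weeks. At 35 weeks they were 210.4 to 913 in db/db Unx and 286 to 999.8 in db/m intact, and 0 of 7 erythroid genes were called in either direction (log2 changes of -0.07 to 0.29).

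The log2 distance of Slc4a1 from Hbb-bs was then compared between the groups within each library, one of 16 such gene pair tests adjusted together. At 26 weeks the distance was -3.06 ± 0.60 in db/db Unx (SD, n = 12) and -4.83 ± 1.31 in db/m intact (n = 5), a difference of 1.76 (exact two-sided permutation test, adjusted p 0.0116). At 35 weeks it was -4.35 ± 0.68 in db/db Unx (n = 5) and -3.44 ± 0.71 in db/m intact (n = 6), a difference of -0.91 that was not past the threshold (exact permutation test, adjusted p 0.115, the smallest unadjusted p possible being 0.00433). Against Atp6v1b1, a pump subunit of the same cells, Slc4a1 was displaced by 0.60 at 26 weeks (exact permutation test, adjusted p 0.0116) and by -0.73 at 35 weeks (adjusted p 0.0277). The 35-week difference from Atp6v1b1 lost its call in 9 of 11 leave-one-out tests, at -0.57 to -0.84, where the smaller groups raise the lowest p possible.

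Likeness across libraries was described by Pearson r of residuals from the group means over 28 libraries. The genes most like Slc4a1, of 13494 others, were Cep78 (r = 0.68), Fstl3 (0.68) and Foxi1 (0.67). Rhcg ranked 20 (0.59) and Atp6v1b1 ranked 104 (0.50). Hbb-bs ranked 4281 (0.10), Hba-a1 4127 (0.11) and Alas2 3329 (0.15). These values include db/m intact replicate 05 of 26 weeks, which had the lowest Slc4a1 and the highest Hbb-bs. They were not recomputed without it. Over all 45 pairs of the 10 genes r ran from -0.13 to 0.67 with a median of 0.33, and 42 were positive. These genes share library, depth and the mix of cells in each sample. Within the 12 db/db Unx libraries of 26 weeks alone, 0 of 16 relations of Slc4a1 passed adjustment. The highest were with Alas2 (r = 0.66, rho = 0.76, unadjusted permutation p 0.0231 for r and 0.00585 for rho, adjusted 0.244 and 0.0936) and Foxi1 (r = 0.58, rho = 0.70, unadjusted permutation p 0.0476 and 0.0139, adjusted 0.244 and 0.112). In the same 12 libraries r was 0.46 with Hbb-bs (rho = 0.59), 0.50 with Hbb-bt, 0.48 with Hba-a1 and 0.45 with Hba-a2. Values with members ran from -0.17 (Slc26a4) to that with Foxi1, being 0.52 with Rhcg and 0.44 with Atp6v1b1. Without the 2 libraries farthest from the Slc4a1 median, replicates 02 and 09, r was highest with Rhcg (0.78). It was then 0.54 with Foxi1, 0.54 with the erythroid factor Klf1 (0.22 with all 12), 0.41 with Alas2 and 0.235 with Hbb-bs.

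**Figure D3:**
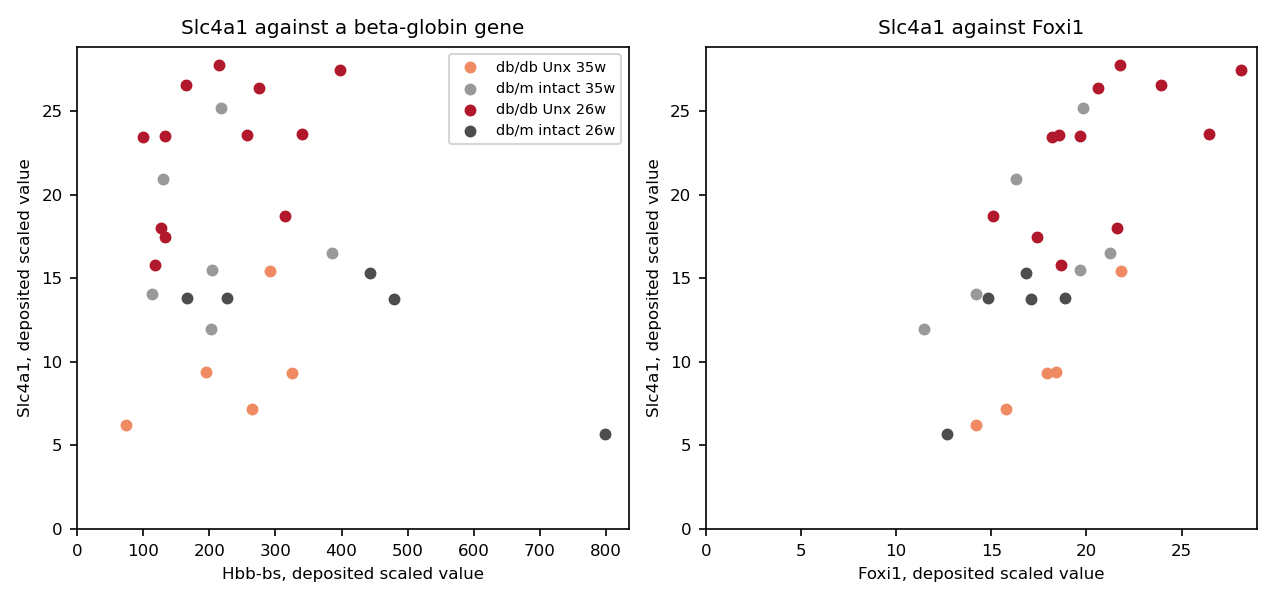
Deposited scaled value of Slc4a1 (vertical axes) against those of the globin gene Hbb-bs (left) and of Foxi1 (right) in 28 libraries, coloured by group. The library with the highest Hbb-bs (798) has the lowest Slc4a1 (5.69), and the residual r over all 28 libraries is 0.10 with Hbb-bs and 0.67 with Foxi1. These r values include that library and were not recomputed without it. Within the 12 db/db Unx libraries of 26 weeks alone, r is 0.46 with Hbb-bs and 0.58 with Foxi1, and neither passed adjustment.

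Slc26a4, the apical chloride and bicarbonate exchanger of the type B cell, fell at both ages. At 26 weeks it ran from 38.3 through 47.4 to 63.7 in db/db Unx, and the 5 db/m intact libraries had 73.4, 58.2, 53.3, 62.0 and 62.7. Here 9 of the 12 db/db Unx libraries lay below every db/m library and the groups overlapped. Its log2 change was -0.35 ± 0.11 (adjusted p 0.0137), and without db/m replicate 01 it was -0.29 and not called (adjusted p 0.0638).

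In the 35-week db/db Unx libraries Slc26a4 had 30.3, 58.8, 40.6, 41.3 and 41.1, and db/m intact ran from 42.9 through 54.4 to 63.6. Here 4 of 5 lay below every db/m library, and replicate 02 lay inside the db/m range, as it did for Slc4a1. The log2 change was -0.38 ± 0.13 (adjusted p 0.0213). It was not called without db/db Unx replicate 01 (-0.26), without db/m replicate 02 (-0.33) or 06 (-0.33), or without the 3 libraries apart (-0.35, adjusted p 0.205). The difference between the ages' comparisons was -0.03 ± 0.17 (95% interval -0.37 to 0.32).

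Slc4a9, which encodes the exchanger AE4 of the type B cell's basolateral side in mice, was not called at either age. It averaged 34.3 ± 4.93 in db/db Unx and 31.0 ± 1.63 in db/m intact at 26 weeks, a log2 change of 0.13 (95% interval -0.05 to 0.31, adjusted p 0.261). At 35 weeks it averaged 34.2 ± 3.33 in db/db Unx and 33.2 ± 2.71 in db/m intact, a change of 0.04 (interval -0.16 to 0.24, adjusted p 0.804), and of -0.04 without the 3 libraries apart. The log2 distance of Slc26a4 from Slc4a9 was 0.49 ± 0.21 in db/db Unx and 0.97 ± 0.17 in db/m intact at 26 weeks, a difference of -0.48 (exact permutation test, n = 12 and 5, adjusted p 0.00517). At 35 weeks the difference was -0.42 (exact permutation test, n = 5 and 6, adjusted p 0.0577), and -0.52 with a call without db/db Unx replicate 02. The distance of Slc4a1 from Slc26a4, type A against type B exchanger, was -1.08 ± 0.36 in db/db Unx and -2.28 ± 0.55 in db/m intact at 26 weeks, a difference of 1.21 (exact permutation test, adjusted p 0.00517), and at 35 weeks the difference was -0.45 (exact permutation test, adjusted p 0.0693), and -0.54 with a call without db/m replicate 02.

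Car2, the cytosolic carbonic anhydrase, which principal and proximal tubule cells also make, was the most abundant of the 10 and rose at both ages without overlap. At 26 weeks it ran from 468 through 602 to 674 in db/db Unx, against 336, 333, 359.5, 359.9 and 331 in db/m intact. At 35 weeks the db/db Unx libraries had 609, 565, 497, 548 and 489, and db/m intact ran from 312 through 360.0 to 408. Log2 changes were 0.79 ± 0.07 at 26 weeks (adjusted p 4.05e-12) and 0.60 ± 0.08 at 35 weeks (adjusted p 5.77e-08). At 35 weeks it was the single gene of the 10 whose groups did not overlap, beside 18.1% of all genes. Without the 3 libraries apart the 35-week change was 0.72 (adjusted p 1.30e-06), and every leave-one-out fit kept both calls. Principal cell genes moved in the same comparisons, with summed values of 1215 to 1712 in db/db Unx and 764 to 1086 in db/m intact at 26 weeks, and of 1266 to 1670 in db/db Unx and 905 to 1547 in db/m intact at 35 weeks, and their part in the Car2 result was not tested.

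The vacuolar proton pump has a soluble sector that splits ATP and a membrane sector that carries protons, and Atp6v1b1, Atp6v1g3 and Atp6v0d2 are forms of 3 of its subunits that are concentrated in intercalated cells. None of these 3 was called in either disease comparison. Atp6v1b1 averaged 27.2 ± 5.42 in db/db Unx and 22.5 ± 2.89 in db/m intact at 26 weeks (log2 change 0.26 ± 0.11, adjusted p 0.0747), and 18.7 ± 2.91 in db/db Unx and 19.98 ± 2.56 in db/m intact at 35 weeks (-0.09 ± 0.13). At 26 weeks the leave-one-out values ran from 0.17 (without db/m replicate 05, adjusted p 0.290) to 0.29 (without db/db Unx replicate 02, called), and it was called under upper quartile scaling. Atp6v0d2 averaged 20.5 ± 2.62 in db/db Unx and 17.4 ± 2.82 in db/m intact at 26 weeks (0.23 ± 0.10, adjusted p 0.0811), a difference that was called without db/m replicate 01 (0.30) or db/db Unx replicate 09 (0.28) and was lowest without db/m replicate 04 (0.16, adjusted p 0.279). At 35 weeks its change was 0.16 ± 0.12, and the changes of Atp6v1g3 were 0.08 ± 0.09 at 35 weeks and 0.09 ± 0.08 at 26 weeks. The 95% intervals of Atp6v1g3 ran from -0.10 to 0.27 at 35 weeks and from -0.07 to 0.25 at 26 weeks. Without the 3 libraries apart the 35-week changes were 0.125 for Atp6v1b1, which turned its sign, 0.25 for Atp6v0d2 and 0.12 for Atp6v1g3, none of them called (adjusted p 0.692, 0.331 and 0.522 in that order).

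Of 18 further subunit genes, 4 rose and 4 fell at 26 weeks, beside 17.2% of all genes called higher and 17.7% lower. At 35 weeks 4 rose and 1 fell, beside 15.9% of all genes called higher and 16.4% lower. The median log2 change of the 18 was 0.00 at 35 weeks and -0.01 at 26 weeks. Atp6v0a4, a form of the membrane sector's largest subunit found in intercalated cells, rose furthest, without overlap at either age. The rise was 0.76 ± 0.10 at 26 weeks (183 ± 31.0 in db/db Unx, 107 ± 8.55 in db/m intact, adjusted p 5.66e-07) and 0.56 ± 0.12 at 35 weeks (adjusted p 0.000367). Per kilobase Atp6v0a4 averaged 36.8 in db/db Unx at 26 weeks, against 6.21 for Atp6v1b1 and 7.56 for Atp6v0d2. Which cells its signal and its rise came from was not tested. Atp6v0a4 also overlaps the annotated genes D630045J12Rik on its own strand and Tmem213 on the other strand. Part of its reads could have been assigned either way, and the sources do not give the use of strand. Of the alternative forms of Atp6v0a4, Atp6v0a2 fell by 0.30 at 26 weeks and by 0.25 at 35 weeks, and Atp6v0a1 had changes of -0.12 at 26 weeks and -0.09 at 35 weeks that were not called. Atp6v0c, the proton-carrying ring subunit, rose by 0.20 at both ages, and Atp6v1f and Atp6v1g1 were also called higher at both. The catalytic subunit Atp6v1a fell by 0.21 at 26 weeks.

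Each intercalated cell form was set against the form of that subunit found in most cells. The log2 distance of Atp6v1b1 from Atp6v1b2 differed by 0.29 at 26 weeks (exact permutation test, adjusted p 0.0944, called at 0.33 without db/db Unx replicate 02) and by 0.01 at 35 weeks (adjusted p 0.905). For Atp6v0d2 against Atp6v0d1 the differences were 0.15 at 26 weeks and 0.12 at 35 weeks, and for Atp6v1g3 against Atp6v1g1 -0.07 and -0.16, none of them past the threshold in the exact permutation test (smallest adjusted p 0.166), though the 35-week difference of Atp6v1g3 was called without db/db Unx replicate 03 (-0.22).

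**Figure D4:**
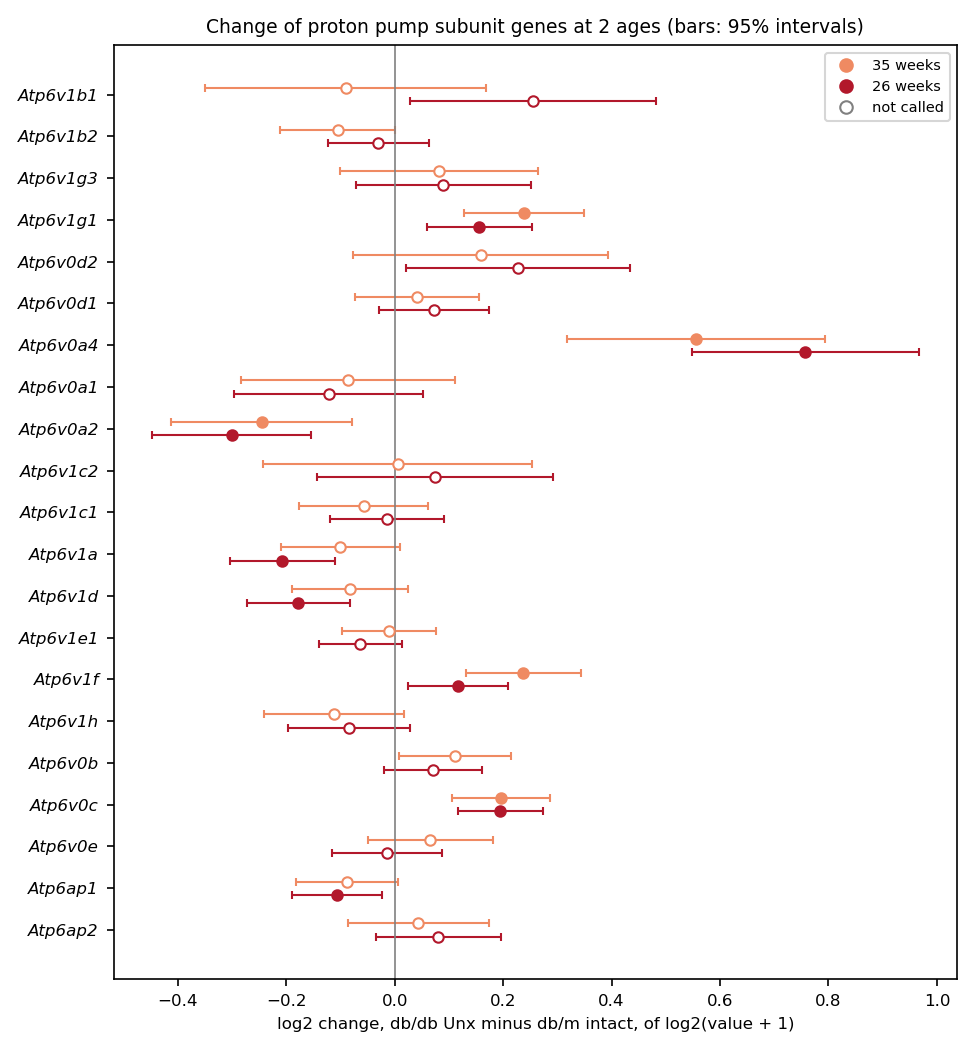
Log2 change, db/db Unx minus db/m intact, of proton pump subunit genes at 35 weeks (orange) and 26 weeks (red), with 95% intervals; filled points were called, and forms of the same subunit stand next to each other at the top. Atp6v0a4 stands out at 0.56 at 35 weeks and 0.76 at 26 weeks, while Atp6v0a2 lies below 0.

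Rhcg, the ammonia channel on both faces of the cell, ran from 80.6 through 102 to 117 in db/db Unx at 26 weeks, and the 5 db/m intact libraries had 78.1, 85.2, 92.4, 88.5 and 75.8. The groups overlapped, with 9 of 12 db/db Unx libraries above every db/m library. It rose by 0.24 ± 0.09 (adjusted p 0.0426), a call that was lost when any of 12 libraries was left out (db/m intact replicates 01, 02, 04 and 05, and db/db Unx replicates 02 to 06 and 10 to 12), and over all 17 leave-one-out fits the change ran from 0.21 to 0.28. The call was also lost without the 3 libraries apart (adjusted p 0.0525), which enter this comparison through the shared estimate of the spread. At 35 weeks the db/db Unx libraries had 63.7, 104, 85.8, 73.6 and 74.6, and db/m intact ran from 56.0 through 69.1 to 87.3, a change of 0.19 ± 0.11 (adjusted p 0.195), and of 0.22 without the 3 libraries apart.

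Rhbg, the basolateral channel, had changes of nearly the size of those of Rhcg and was not called. It averaged 48.0 ± 7.55 in db/db Unx and 41.4 ± 7.38 in db/m intact at 26 weeks (0.21 ± 0.10, adjusted p 0.111), where leaving out db/m replicate 04 (0.29) or db/db Unx replicate 10 brought a call and leaving out db/m replicate 02 gave the lowest value (0.13, adjusted p 0.375). At 35 weeks it averaged 36.2 ± 6.15 in db/db Unx and 32.0 ± 1.90 in db/m intact (0.16 ± 0.12, adjusted p 0.330), and without the 3 libraries apart the change was 0.37 (adjusted p 0.0994). The log2 distance between Rhcg and Rhbg differed by 0.03 at each age (exact permutation test, adjusted p 0.901 for both).

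Foxi1, the transcription factor that specifies intercalated cells, ran from 15.1 through 20.1 to 28.1 in db/db Unx at 26 weeks, and db/m intact had 16.8, 17.1, 14.8, 18.9 and 12.7. Above every db/m library lay 7 of the 12 db/db Unx libraries. It rose by 0.35 ± 0.13 (adjusted p 0.0302). The call was lost without db/m replicate 03 (0.33) or 05 (0.27) and without db/db Unx replicate 04 (0.31). At 35 weeks db/db Unx had 14.2, 21.8, 17.9, 15.8 and 18.4, inside the db/m range of 11.4 to 21.2 but for replicate 02, a change of 0.06 ± 0.14 (adjusted p 0.815), and of 0.07 without the 3 libraries apart. Its difference between the ages was not called (-0.29 ± 0.19, adjusted p 0.562).

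The age comparison in db/db Unx, 35 minus 26 weeks, asked what changes as these mice age. Of the 10 genes 5 were called, beside 11.3% of all genes, and all 5 fell, beside 6.14% called lower. Slc4a1 fell by 1.21 ± 0.19 (9.52 ± 3.59 at 35 weeks, 22.7 ± 4.17 at 26 weeks, adjusted p 0.000141) and was the single one whose groups did not overlap, beside 1.34% of all genes. Atp6v1b1 fell by 0.51 ± 0.11 (18.7 ± 2.91 at 35 weeks, 27.2 ± 5.42 at 26 weeks, adjusted p 0.00320) and Atp6v1g3 by 0.36 ± 0.08 (42.3 ± 6.35 at 35 weeks, 54.2 ± 5.25 at 26 weeks, adjusted p 0.00337). Rhbg fell by 0.40 ± 0.10 (adjusted p 0.0108) and Rhcg by 0.32 ± 0.09 (adjusted p 0.0228). The Rhbg call was lost without 35-week replicate 05 or 06, and the Rhcg call without 01, 05 or 06, while Slc26a4, at -0.21 and not called, was called without replicate 02 (-0.33) and had -0.10 without replicate 01. Without the 3 libraries apart none of the 10 was called, with Slc4a1 at -1.10 (adjusted p 0.182), Atp6v1b1 at -0.29, Atp6v1g3 at -0.31, Rhbg at -0.19 and Rhcg at -0.29. The number of all genes called moved with single libraries too, being 1526 with all, 630 without replicate 05, 756 without replicate 06 and 8 without the 3 libraries. Macrophage genes rose in 7 of 10 cases and injured tubule genes in 5 of 8 between these ages, beside 11.3% of all genes called in either direction. The part of these lists in the results above was not tested.

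In db/m intact the same age comparison called 1 of the 10 genes, beside 7.4% of all genes. Atp6v1g3 fell by 0.35 ± 0.09 (39.8 ± 4.12 at 35 weeks, 50.8 ± 3.58 at 26 weeks, adjusted p 0.0129), beside 4.68% called lower, and its groups did not overlap, beside 4.99% of all genes. The difference of its falls between db/db Unx and db/m intact was -0.01 (95% interval -0.25 to 0.24). Slc4a1 had a value of 0.47 ± 0.21 that was not called (adjusted p 0.191) and 0.24 without 26-week replicate 05. Rhbg (-0.35, adjusted p 0.0679) and Rhcg (-0.27, adjusted p 0.135) had values close to those of db/db Unx without a call, and Rhbg was called when 26-week replicate 02 was left out (-0.43), with -0.27 when 26-week replicate 04 was. Without 26-week replicate 05 the number of all genes called was 578, and 999 with all libraries.

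The residual correlations of the other members named mostly genes outside the acid-base lists. Slc26a4 was most like Syn2 (r = 0.81), Hhatl (0.69) and Pkp2 (0.67), and Rhbg was most like Nhsl1 (0.83). Rhcg was most like Scnn1a (0.74), a subunit of the principal cell's sodium channel. Atp6v1g3 led with Hoxb5os (0.72) and Hhatl (0.68), Car2 with Malrd1 (0.73), Foxi1 with Scrib (0.71), Atp6v0d2 with Commd8 (0.69), Slc4a9 with Phf1 (0.67) and Atp6v1b1 with Serbp1 (0.67). Each is a description over 28 libraries with no test.

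Of 22 other genes of intercalated cells 21 were tested, Slc26a7 falling under the filter. At 26 weeks 12 rose and 1 fell, with a median log2 change of 0.49, beside 17.2% of all genes called higher and 17.7% lower. At 35 weeks 8 rose and 0 fell, with a median of 0.20, beside 15.9% of all genes called higher and 16.4% lower. Atp4a, the catalytic subunit of the proton and potassium pump, rose by 0.92 at 35 weeks (67.5 ± 12.5 in db/db Unx, 34.8 ± 3.56 in db/m intact) and by 0.91 at 26 weeks. Tfcp2l1, a transcription factor of the collecting duct, rose by 0.74 at 35 weeks and 0.78 at 26 weeks, and Car15, a membrane-bound carbonic anhydrase, by 0.81 and 0.90 in the same order. Aqp6, a vesicle water channel of type A cells, rose by 0.70 at 35 weeks and 1.00 at 26 weeks (10.8 ± 2.06 in db/db Unx, 4.87 ± 0.909 in db/m intact). Insrr, an alkali-sensing receptor of type B cells, fell by 0.45 at 26 weeks, and its value at 35 weeks was -0.16 and not called. Slc4a8, a sodium-driven exchanger of type B cells, rose by 0.72 at 26 weeks and had 0.07 at 35 weeks.

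Genes of neighbouring segments were also called. Of all genes 17.2% were called higher and 17.7% lower at 26 weeks, and 15.9% higher and 16.4% lower at 35 weeks. Principal cell genes rose in 9 of 12 cases at 26 weeks and 6 of 12 at 35 weeks, with Aqp2, the vasopressin-regulated water channel, at 1.03 and the basolateral water channel Aqp4 at -1.17 at 26 weeks. Of 10 genes of the distal convoluted and connecting tubule, 6 rose at 26 weeks and 7 at 35 weeks, with Calb1, a calcium buffer, at 1.12 at 35 weeks and 1.20 at 26 weeks, and Kl fell at both. Of 8 proximal tubule genes of acid-base and ammonia handling, 5 rose and 2 fell at 26 weeks, and 6 rose and 1 fell at 35 weeks. Slc38a3, the glutamine transporter that feeds ammonia synthesis, had the greatest change of that list, 2.72 ± 0.17 at 35 weeks (160.0 ± 46.7 in db/db Unx, 22.7 ± 2.94 in db/m intact) and 3.02 ± 0.15 at 26 weeks (175 ± 35.9 in db/db Unx, 20.4 ± 2.57 in db/m intact). Glud1 and Pck1 of the same pathway rose by 0.76 and 1.41 at 26 weeks, and Car4, the luminal carbonic anhydrase, fell by 1.64 at 26 weeks and by 1.91 at 35 weeks. Of 7 thick limb genes, 4 rose and 2 fell at 26 weeks and 2 rose and 3 fell at 35 weeks. Urothelial genes, of which 2 of 5 were tested, had 1 call at 26 weeks, Upk1a.

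**Figure D5:**
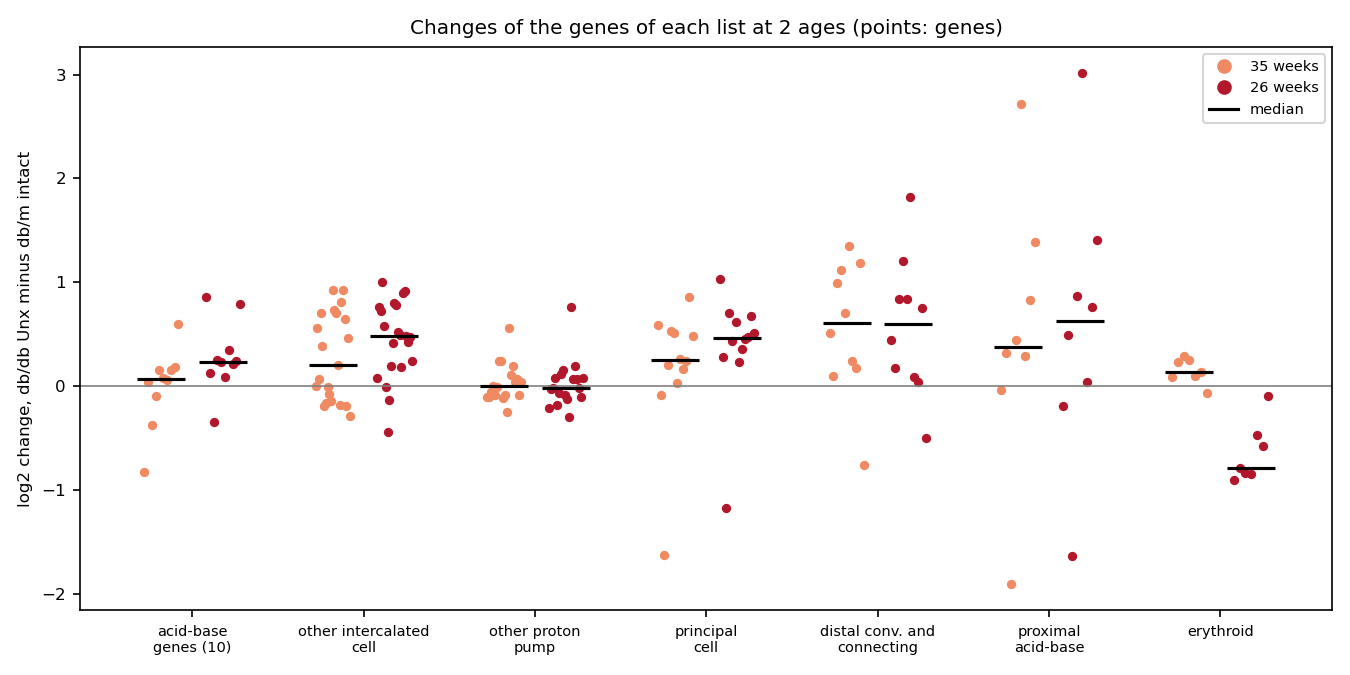
Log2 change, db/db Unx minus db/m intact, of every tested gene of 7 lists at 35 weeks (orange) and 26 weeks (red), each point a gene and each black line the list's median. The medians of the 10 acid-base genes are 0.07 at 35 weeks and 0.24 at 26 weeks, and those of the other intercalated cell genes 0.20 and 0.49, while the erythroid median at 26 weeks is -0.78.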

How the data were processed

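Per the labels' protocols, total kidney RNA was purified (TRIzol, then RNeasy) and made into libraries with Nextera XT. The authors deposited 1 scaled signal value per gene and library; DRAGEN and the build GRCm38 (mm10) were used, per the submitters' processing notes. The sources used here do not give the version, annotation, use of strand, scaling or gene filter. Of the low values, 88.7% to 91.5% lay within 0.1 of a whole multiple of a library-specific step, too few for a count model; dividing by the step gave the estimated counts. There were 0 value columns without a sample.

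Symbols came from GENCODE M21, which matched 14834 of 14845 identifiers. The 13495 genes that reached 1 in 5 or more libraries were fitted as log2(value + 1) with limma 3.58.1 in R 4.3.3, with 4 group means, trend and robust moderation, two-sided tests and Benjamini-Hochberg adjustment over all genes. Fold changes understate low genes on this scale. Gene pairs were compared by exact two-sided permutation tests (scipy 1.17.1, 16 tests adjusted together), and correlations by 100000 permutations. The fits were tested on simulated data.

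The genes and lists were chosen with earlier results of these data known. Named genes were the 10 members, up to 4 called genes with the smallest adjusted p per other list, any pump subunit, other intercalated cell gene, pair partner or erythroid gene, and the 3 genes most like each member. Umod, Slc12a3 and Pck1 fell outside this rule and were chosen after their values were seen. Alternatives were pseudocount 0.1, no filter, upper quartile and quantile scaling, limma without trend and robust moderation, a replicate block, a fit per age, and each library left out in turn.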

Additional observations from a re-analysis of the deposited data

Results flagged for a closer look

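Slc4a1 in db/m intact replicate 05 of 26 weeks was 5.69, far below the other 4 libraries of its group (13.7 to 15.3). Atp6v1b1 was also lowest in that library, at 17.4, far below the others (23.2 to 24.5). In the 3 groups of 5 or 6 libraries these were the 2 of 30 combinations of gene and group in which a single library lay that far from the rest, where chance alone flags about 1 in 20. The same library had the highest Hbb-bs of all 28, at 798. The 12 db/db Unx libraries of 26 weeks were not examined in this way; there Atp6v1b1 was highest in replicate 03, at 42.4, and next highest at 29.3.

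The change of Slc4a1 differed between the ages: the disease comparison at 35 weeks minus that at 26 weeks was -1.68 on the log2 scale, tested as an interaction (adjusted p 0.00712 in limma).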

How the results depend on the processing

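Of 15 called changes of the 10 genes, refitted 355 times in all, 314 fits kept direction and call, 41 lost the call and 0 changed sign, and 8 of 855 fits of uncalled changes gained one. Replicate numbers did not pair the samples (0 of 10 same-numbered pairs had a residual r above 0.1), and with the replicate block the number of the 10 genes called was 3 in the 26-week comparison, 3 in the db/db Unx age comparison and 0 in the difference between the ages (Slc4a1 -1.60, adjusted p 0.0548). Of all 13495 genes tested with the block, 3919, 483 and 29 were called in these comparisons, in that order. With single libraries left out the number of the 10 genes called ran from 3 to 6 at 26 weeks, from 3 to 6 with age in db/db Unx and from 1 to 2 with age in db/m intact. Over all genes the number called in the same fits ran from 4176 to 4756, from 630 to 1748 and from 578 to 1140, in that order. Without the 3 libraries apart, an alternative chosen after seeing the data, the number of the 10 genes called was 1 at 35 weeks, 0 with age in db/db Unx and 0 in the difference, with only 2 libraries left in that group. Of all 13417 genes tested then, 2408, 8 and 0 were called in these comparisons, in that order.

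Pair differences with single libraries left out ran from 0.21 to 0.34 for Atp6v1b1 and Atp6v1b2 at 26 weeks. At 35 weeks they ran from -0.54 to -0.35 for Slc4a1 and Slc26a4, from -0.84 to -0.57 for Slc4a1 and Atp6v1b1, from -0.52 to -0.35 for Slc26a4 and Slc4a9, and from -0.22 to -0.12 for Atp6v1g3 and Atp6v1g1. Over all genes, the number called with age in db/db Unx was 483 with the replicate block and 1526 without it. In the difference it was 29 with the replicate block, 41 in limma without trend and robust moderation and 74 otherwise. In the 35-week comparison it was 2408 without the 3 libraries and 4357 with them. Foxi1 at 26 weeks was not called after quantile normalization (0.29), Rhcg at 26 weeks was not called without trend and robust moderation, and Slc26a4 at 35 weeks was not called in a fit of that age alone. Depth did not limit the 10 genes, but does limit Epb42, whose estimated count was 0 to 52.9.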
